A study of Mus musculus with 27 samples.

Results

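The growth factor and cytokine receptors of the liver are the membrane proteins through which hepatocytes and their neighbours receive hormones, growth factors and inflammatory signals. The genes described here are Egfr, Erbb3, Met, Prlr, Lifr, Lepr, Il6ra, Il6st and Il1r1. They were chosen by name as receptors known to act in the liver, with earlier results of these data known. Counts of these genes and of the gene lists below, set beside shares of all genes, are thus descriptions and not tests. Where a gene had several probe sets, the brightest on average over the 27 livers stood for it. Of the 9 genes, 8 had a probe set that names a single gene, and all 8 passed the intensity minimum, out of 18820 genes with such a probe set and 13603 that passed. Prlr, the prolactin receptor, was not analysed here.

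Livers of 27 male C57BL/6J mice were compared, with 1 array per mouse. The CR group (n = 6) was calorie restricted by 30% of the energy intake of C-fed mice, given as 1 portion a day. The INT group (n = 7) alternated weekly between a medium-fat diet ad libitum and a restriction of 40%, and was sacrificed in an ad libitum week. The MF group (n = 7) ate the medium-fat diet, with 25% of energy from fat, ad libitum, and the C group (n = 7) ate the control diet ad libitum. All mice arrived at 7 weeks of age, began their diets at 9 weeks, were housed singly and were sacrificed at 12 months. Before sacrifice, every mouse was fasted for 4 h, was given 0.5% carboxymethyl cellulose by gavage as a mock treatment, and was fasted for another 6 h. The livers are thus those of fasted, mock-treated males of a single inbred strain, and the INT group shows the refed phase of its cycle only. The paper gives the CR portion at a set time each afternoon, whereas the other groups had food ad libitum before the shared fast. The time since the last meal may thus have differed between CR and the other groups. It cannot be told apart from the diet here. The labels do not say whether any mice were littermates.

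Receptors of this set belong to 3 families. Egfr, Erbb3 and Met are receptor tyrosine kinases: ligand binding brings 2 receptor molecules together, and the kinases then start the Ras and phosphatidylinositol 3-kinase pathways that drive hepatocyte growth and repair. Lifr, Lepr, Il6ra and Il6st are class I cytokine receptors, which have no kinase of their own and signal through Janus kinases and STAT proteins. Il1r1 uses Myd88 and NF-kB. Signals through Il6st and Il1r1 are the textbook inducers of the acute phase proteins, which hepatocytes secrete into the blood in inflammation.

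Egfr and Lifr, the pair whose values moved together most closely from mouse to mouse, are shown by the 250 bases that precede a RefSeq transcription start (GRCm38.p6). The sequences used hold another Lifr start, not shown, and both Lifr starts lie inside the gene positions given below. Egfr lies on chromosome 11 (gene at 16752203 to 16913907, forward strand) and the bases shown are chr11:16751953-16752202. Lifr lies on chromosome 15 (gene at 7090610 to 7197489, forward strand) and the bases shown are chr15:7129322-7129571. Capitals mark GGGCGG, or CCGCCC on the other strand, the core of a GC box:
Egfr: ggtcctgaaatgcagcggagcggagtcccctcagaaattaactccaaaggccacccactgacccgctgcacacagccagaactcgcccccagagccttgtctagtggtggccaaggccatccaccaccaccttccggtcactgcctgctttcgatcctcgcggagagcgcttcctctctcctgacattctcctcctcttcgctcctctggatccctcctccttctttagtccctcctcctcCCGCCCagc
Lifr: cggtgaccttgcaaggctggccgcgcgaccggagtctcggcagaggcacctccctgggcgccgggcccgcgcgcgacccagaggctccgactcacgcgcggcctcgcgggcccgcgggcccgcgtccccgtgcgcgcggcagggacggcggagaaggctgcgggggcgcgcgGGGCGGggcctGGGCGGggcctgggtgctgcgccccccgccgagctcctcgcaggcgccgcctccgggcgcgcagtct
GC content was 60.8% in the Egfr stretch and 82.4% in the Lifr stretch, with 11 and 43 CpG pairs. GGGCGG occurred once in the Egfr stretch and 2 times in the Lifr stretch, on either strand, and 32.7% of 32851 promoters of the same length held it. The spaced palindrome TTCNNNGAA, a form that STAT proteins recognise, and the TATA box letters TATAAA occurred in neither stretch on either strand. They were present in 7.02% and 12.4% of all promoters. No motif overlapped another in these 2 stretches.

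The arrays were alike in overall signal. Medians lay between 5.21 and 5.27 log2 units after normalization, and Pearson's r between arrays ranged from 0.982 to 0.992. Arrays of replicates 5 to 7 (n = 11) had a wider interquartile range, 3.72 ± 0.033 log2 units, than those of replicates 1 to 4 (n = 16), 3.63 ± 0.033 (mean ± SD). This split by replicate number is called array sets below, although the labels name no batch. The 2 sets overlapped in interquartile range, with 3.64 in INT replicate 6 and 3.70 in MF replicate 1. The split crossed the diets, with 2 CR-fed mice and 3 of each other diet in replicates 5 to 7. All 6 measured hepatocyte markers passed the intensity minimum, with summed intensities of 51423 to 53321 in CR-fed livers, 48589 to 53151 in INT-fed livers, 47216 to 53384 in MF-fed livers and 48543 to 53401 in C-fed livers. Of 5 adipocyte markers, Plin1, Retn and Fabp4 passed the minimum and Adipoq and Lep were below it on every array. Of 4 exocrine pancreas markers, Cela1 and Cpa1 passed, and Ctrb1 and Try4 were below it on every array.

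Receptor expression in CR-fed mice differed from that in every other group, and no receptor gene was called between the INT, MF and C groups. Lepr rose in CR-fed mice against each of the other diets, and Met fell against each. Egfr fell against INT and C, Il1r1 fell against MF and C, Lifr fell against INT, Il6st fell against MF, and Erbb3 rose against C. Il6ra passed no test. A gene is called where the limma test across 13603 genes gave a Benjamini-Hochberg adjusted p under 0.05. Comparisons of CR with INT, MF and C share the CR-fed mice, so their values are given side by side and are not independent of each other. In whole liver, fewer cells of a type and less RNA per cell cannot be told apart.

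Between CR-fed and INT-fed mice, 3 of the 8 receptor genes were called lower and 1 higher, against 8.37% and 6.62% of all genes tested. The groups did not overlap for 4 receptor genes, Egfr, Met, Lifr and Lepr, and for 6.43% of all genes. Between CR-fed and MF-fed mice, 3 were lower and 1 higher, against 11.2% and 8.57% of all genes, and 2, Met and Lepr, did not overlap, as did 7.02% of all genes. Between CR-fed and C-fed mice, 3 were lower and 2 higher, against 9.05% and 8.46% of all genes, and 2, Lepr and Il1r1, did not overlap, as did 6.7% of all genes. The median log2 fold change of the 8 receptor genes was -0.28, -0.21 and -0.25 in these 3 comparisons, where the median of all genes was 0.00 in each.

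**Figure D1:**
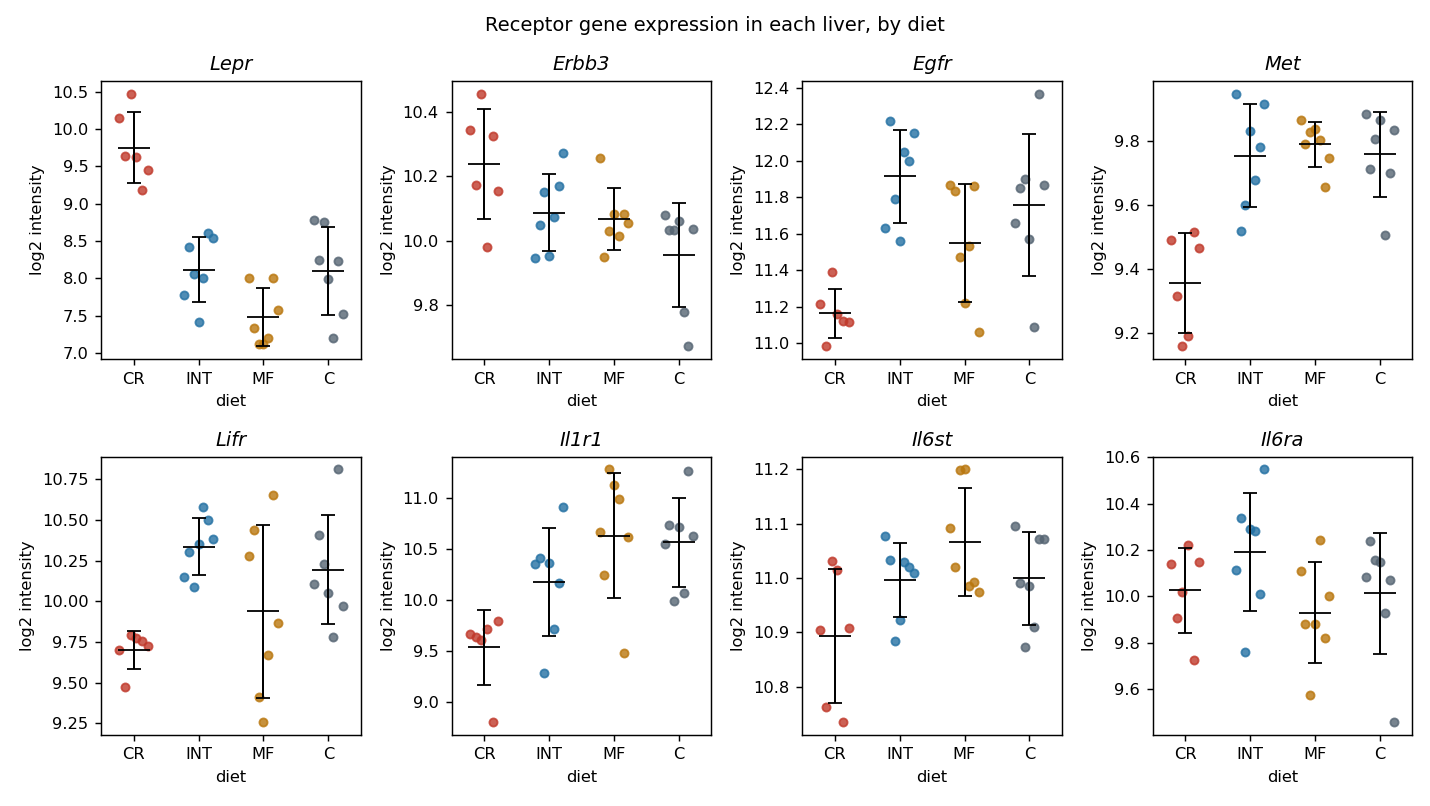
Log2 intensity of the 8 measured receptor genes (vertical axes, each with its own range) in each liver, by diet (CR n = 6, others n = 7). Points are mice, the wide bar is the mean and the error bar 1 SD. CR-fed mice lie above all others for Lepr (9.19 to 10.48), and for Met they lie below all other mice except 1 C-fed mouse.

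Lepr encodes the leptin receptor, which brings the signal of fat stores to the brain and whose short and secreted forms are made by the liver. It lies on chromosome 4 (101717137 to 101815352). Its log2 intensity had a lowest value of 9.19, a median of 9.63 and a highest of 10.48 in CR-fed livers, against 7.42, 8.06 and 8.61 in INT-fed livers, 7.12, 7.34 and 8.00 in MF-fed livers and 7.20, 8.23 and 8.78 in C-fed livers. Every CR-fed mouse lay above every mouse of the other groups. In CR-fed mice Lepr was 3.11-fold higher than in INT-fed mice (log2 fold change 1.64, standard error 0.25, limma adjusted p = 3.02e-05). It was 4.84-fold higher than in MF-fed mice (2.28, standard error 0.25, limma adjusted p = 2.18e-07) and 3.14-fold higher than in C-fed mice (1.65, standard error 0.25, limma adjusted p = 2.39e-05). Diet accounted for 77.3% of its variance over the 27 mice, rank 130 of 13603 genes, where the median gene had 17.8%. Its probe set covers several transcripts, so the signalling, short and secreted forms were not told apart. Within replicates 5 to 7 alone, the difference from INT was 0.93 and was not called (limma adjusted p = 0.15). The probe sets of Egfr, Lifr and Il1r1, described below, also name several transcripts, so forms of these genes were not told apart either.

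Among the tyrosine kinase receptors, Met, the receptor of hepatocyte growth factor on chromosome 6, was the one that fell against all 3 diets. Its lowest, median and highest log2 intensities were 9.16, 9.39 and 9.52 in CR-fed livers, against 9.52, 9.78 and 9.95 in INT-fed, 9.66, 9.81 and 9.87 in MF-fed and 9.51, 9.81 and 9.89 in C-fed livers. The highest CR-fed mouse lay just below the lowest INT-fed mouse and just above the lowest C-fed mouse. Met was lower in CR-fed mice by 1.32-fold against INT (-0.40, standard error 0.08, limma adjusted p = 0.000467), by 1.35-fold against MF (-0.43, limma adjusted p = 0.000144) and by 1.32-fold against C (-0.40, limma adjusted p = 0.000377). Diet accounted for 65.8% of its variance, rank 424. Within replicates 5 to 7 alone none of these 3 differences was called (-0.30, -0.25 and -0.19, limma adjusted p = 0.212, 0.329 and 0.429).

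Egfr encodes the receptor of epidermal growth factor, which hepatocytes carry in large numbers. Its lowest, median and highest values were 10.98, 11.14 and 11.39 in CR-fed livers, against 11.56, 12.00 and 12.22 in INT-fed, 11.06, 11.53 and 11.87 in MF-fed and 11.09, 11.85 and 12.37 in C-fed livers. CR-fed mice were close together (SD 0.14), and the MF and C groups each reached down into their range. Egfr was lower in CR-fed mice by 1.68-fold against INT (-0.75, standard error 0.16, limma adjusted p = 0.00112) and by 1.51-fold against C (-0.59, limma adjusted p = 0.00775). The difference from MF, -0.39 (95% interval -0.70 to -0.07), was not called (limma adjusted p = 0.0813). It was called without MF replicate 7 (0.0348) or C replicate 5 (0.0475), the lowest mouse of each of those groups. Within replicates 5 to 7 alone the differences from INT and C were -0.95 and -0.66 and were not called (limma adjusted p = 0.15 and 0.295).

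Erbb3, a receptor of neuregulins with little kinase activity of its own that works by pairing with other ErbB receptors, lies on chromosome 10 and went the other way. Its lowest, median and highest values were 9.98, 10.25 and 10.46 in CR-fed livers, against 9.94, 10.07 and 10.27 in INT-fed, 9.95, 10.05 and 10.26 in MF-fed and 9.67, 10.03 and 10.08 in C-fed livers. The CR range overlapped each of the others. Erbb3 was 1.22-fold higher in CR-fed than in C-fed mice (0.28, standard error 0.08, limma adjusted p = 0.0113). This call was lost within replicates 1 to 4 (0.19, limma adjusted p = 0.257) and within replicates 5 to 7 (0.41, limma adjusted p = 0.0884). The differences from INT (0.15, limma adjusted p = 0.206) and MF (0.17, limma adjusted p = 0.127) were not called, and the second was called without CR replicate 4 (limma adjusted p = 0.0465).

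**Figure D2:**
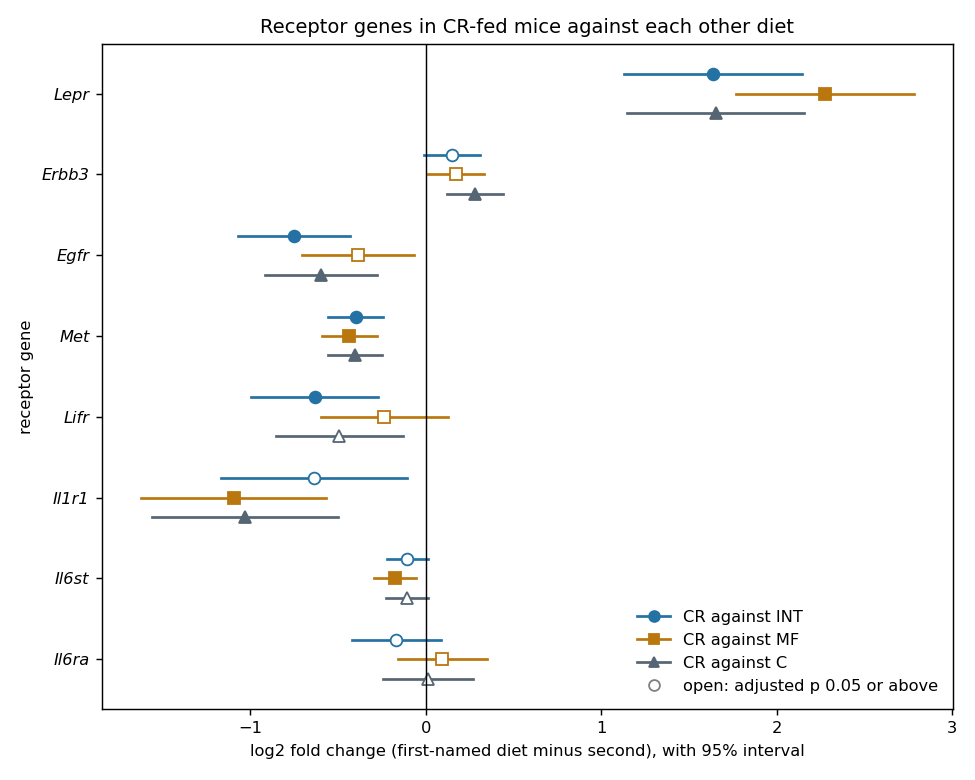
Log2 fold change of the 8 receptor genes (rows) in CR-fed mice against INT (circles), MF (squares) and C (triangles), with 95% intervals from limma. Filled symbols are called. Lepr lies farthest right (1.64 to 2.28) and Il1r1 reaches farthest left (-1.09 against MF).

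Lifr, the receptor of leukaemia inhibitory factor, works in a pair with the product of Il6st. Its lowest, median and highest values were 9.47, 9.74 and 9.79 in CR-fed livers, against 10.09, 10.35 and 10.58 in INT-fed, 9.26, 9.87 and 10.65 in MF-fed and 9.78, 10.11 and 10.81 in C-fed livers. CR-fed mice lay below all INT-fed mice, while the MF group was spread wide (SD 0.53) on both sides of them. Lifr was 1.55-fold lower in CR-fed than in INT-fed mice (-0.63, standard error 0.18, limma adjusted p = 0.0138). This call was lost within replicates 1 to 4 (-0.54, limma adjusted p = 0.128) and within replicates 5 to 7 (-0.75, limma adjusted p = 0.264). The difference from C, -0.49 (95% interval -0.85 to -0.13), narrowly missed the threshold (limma adjusted p = 0.0529). It was called with 1 of several mice left out: MF replicate 2, 3, 4 or 6 or C replicate 5 (limma adjusted p = 0.0307 to 0.0451). The difference from MF was -0.24 (95% interval -0.60 to 0.13, limma adjusted p = 0.388).

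Il6st encodes gp130, the signalling chain shared by the receptors of interleukin-6, leukaemia inhibitory factor and related cytokines. It had the narrowest range of the class I receptors over the 27 mice, with lowest, median and highest log2 values of 10.73, 10.91 and 11.03 in CR-fed livers, against 10.88, 11.02 and 11.08 in INT-fed, 10.97, 11.02 and 11.20 in MF-fed and 10.87, 10.99 and 11.09 in C-fed livers. The CR range overlapped each of the others. Il6st was 1.13-fold lower in CR-fed than in MF-fed mice (-0.17, standard error 0.06, limma adjusted p = 0.034). That call did not hold under median centring (limma adjusted p = 0.0813), cyclic loess (limma adjusted p = 0.066), or without any of CR replicates 2, 5 and 6 and MF replicates 1, 3 and 4 (limma adjusted p = 0.05 to 0.0951). Differences from INT (-0.10) and C (-0.11) were not called (limma adjusted p = 0.251 and 0.225).

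Il6ra, the chain that binds interleukin-6 itself, showed no called difference. Its lowest, median and highest values were 9.72, 10.08 and 10.22 in CR-fed livers, against 9.76, 10.28 and 10.55 in INT-fed, 9.57, 9.88 and 10.24 in MF-fed and 9.46, 10.08 and 10.24 in C-fed livers. The log2 fold changes in CR-fed mice were -0.17 against INT (95% interval -0.42 to 0.09), 0.10 against MF (-0.16 to 0.35) and 0.01 against C (-0.24 to 0.27). These intervals leave room for a change of about 0.4 log2 units against INT, and the sign of the last turned when single mice were left out. Diet accounted for 16.8% of its variance, close to the median gene.

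Il1r1, the receptor of interleukin-1 on chromosome 1, carries the signal that switches on NF-kB. Its lowest, median and highest values were 8.80, 9.66 and 9.80 in CR-fed livers, against 9.29, 10.36 and 10.92 in INT-fed, 9.48, 10.67 and 11.29 in MF-fed and 9.998, 10.63 and 11.27 in C-fed livers. CR-fed mice lay below all C-fed mice and below all but 1 MF-fed mouse. Il1r1 was 2.14-fold lower in CR-fed than in MF-fed mice (-1.09, standard error 0.26, limma adjusted p = 0.00298) and 2.04-fold lower than in C-fed mice (-1.03, standard error 0.26, limma adjusted p = 0.0056). Within replicates 5 to 7 alone these were -1.07 and -1.36 and were not called (limma adjusted p = 0.337 and 0.178). The difference from INT, -0.64 (95% interval -1.17 to -0.11), was not called (limma adjusted p = 0.0994), but was called without INT replicate 3, the lowest INT-fed mouse (-0.79, limma adjusted p = 0.0335).

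In the comparisons among the other diets, 0 of the 8 receptor genes and 0% of all genes were called between INT and MF, 0 and 0% between INT and C, and 0 and 0% between MF and C (limma). At an unadjusted limma p under 0.05 the receptor genes numbered 4, 0 and 1 of 8, and all genes 1479, 922 and 464 of 13603. The 4 between INT-fed and MF-fed mice had higher means in INT: Lepr at 0.64 (95% interval 0.15 to 1.13), Lifr at 0.40 (0.05 to 0.74), Egfr at 0.36 (0.06 to 0.67) and Il6ra at 0.26 (0.02 to 0.51), with limma adjusted p between 0.373 and 0.439. Lepr was also the 1 between MF-fed and C-fed mice, at -0.62 (95% interval -1.11 to -0.14, limma adjusted p = 1.00). Over the 8 genes the differences ran from -0.46 to 0.64 for INT against MF, from -0.39 to 0.18 for INT against C and from -0.62 to 0.11 for MF against C. Of the group means of Lepr, CR was thus highest and MF lowest, and only CR was set apart by a called difference. The INT and C means were nearly equal (8.12 and 8.10), and their medians lay in the other order (8.06 and 8.23).

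Of 15 genes tested for ligands of these and related receptors, 1, Mst1, was higher and 1, Hgf, lower in CR-fed mice in each of the 3 CR comparisons. Over all genes tested, 6.62%, 8.57% and 8.46% were called higher and 8.37%, 11.2% and 9.05% lower against INT, MF and C, so these counts are near the shares of all genes. Hgf, the ligand of Met, averaged 8.01 ± 0.12 log2 units in CR-fed livers (SD, n = 6), against 8.38 ± 0.12 in INT-fed, 8.37 ± 0.16 in MF-fed and 8.27 ± 0.11 in C-fed livers (SD, n = 7 each). Its log2 fold change was -0.37, -0.36 and -0.26 (limma adjusted p = 0.000773, 0.000722 and 0.0123). Mst1, which hepatocytes secrete as the ligand of the Met relative Mst1r, rose by 0.24, 0.35 and 0.26 (limma adjusted p = 0.00674, 0.000139 and 0.00237). The means of Hgf and of its receptor Met were both lowest in CR-fed livers.

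Of 19 partner and related receptor genes, 1 was higher and 4 lower against INT, 3 higher and 3 lower against MF, and 3 higher and 3 lower against C. Over all genes, 6.62%, 8.57% and 8.46% were called higher and 8.37%, 11.2% and 9.05% lower in these comparisons. Erbb4, another ErbB receptor, averaged 6.41 ± 0.35 in CR-fed livers, against 7.20 ± 0.33 in INT-fed, 7.28 ± 0.25 in MF-fed and 7.34 ± 0.16 in C-fed livers. It fell by 0.78, 0.86 and 0.93 log2 units (limma adjusted p = 0.000377, 0.000102 and 4.61e-05) in the same mice in which Erbb3 had its highest mean. Ghr, the growth hormone receptor, fell by 0.28, 0.18 and 0.24 (limma adjusted p = 0.000457, 0.0151 and 0.00229). The interferon receptor chains Ifnar1 and Ifngr1 went opposite ways: Ifnar1 fell by 0.26, 0.21 and 0.22 (limma adjusted p = 0.00167, 0.0102 and 0.007) and Ifngr1 rose by 0.32, 0.25 and 0.28 (limma adjusted p = 0.000905, 0.00631 and 0.0023). Il22ra1, a chain of the interleukin-22 receptor, rose by 0.96 against MF and 1.42 against C (limma adjusted p = 0.0142 and 0.000606), and its 0.71 against INT was not called (limma adjusted p = 0.0885). The remaining calls, named only to complete the counts, were Il1rap (lower against INT) and Kdr (higher against MF and C).

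**Figure D3:**
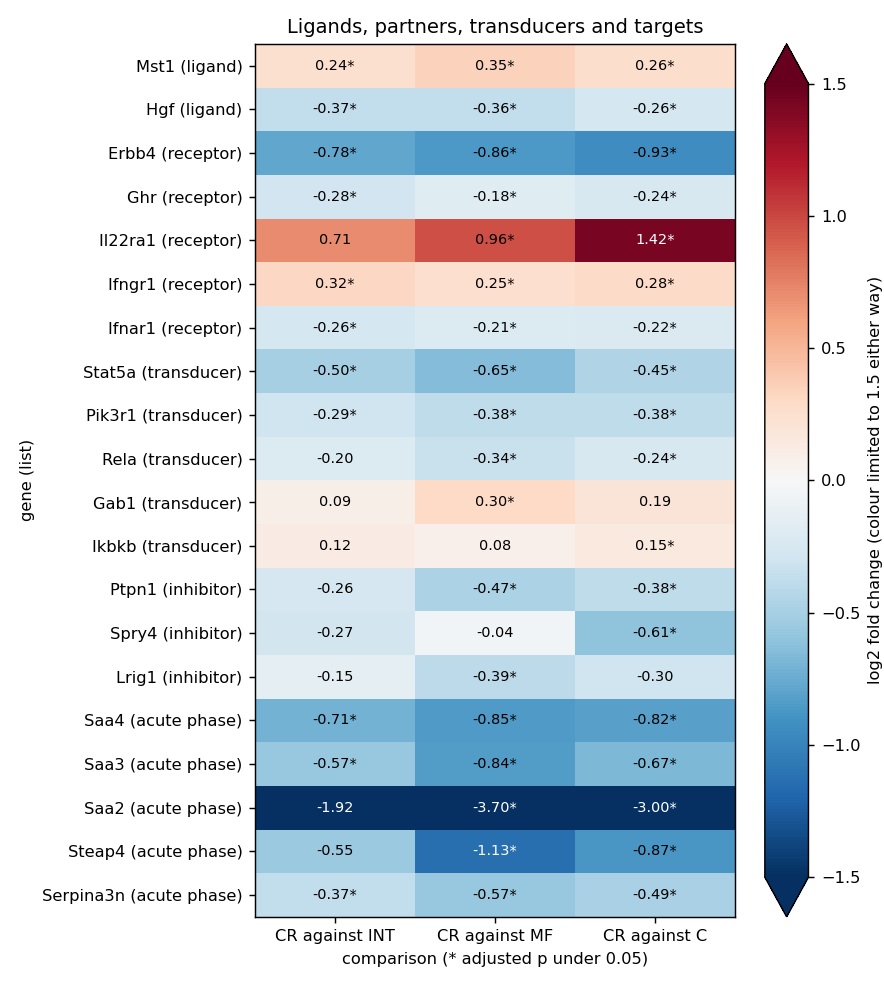
Log2 fold change (colour and printed value) of 20 pathway genes (rows, with their list) in CR-fed mice against INT, MF and C (columns), with an asterisk where called. Stat5a, Pik3r1, Erbb4, Hgf and Saa4 are called lower in all 3 columns, and Saa2 has the most negative value (-3.70 against MF).

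Of 20 signal transducer genes, 2 against INT, 5 against MF and 3 against C were lower, where 8.37%, 11.2% and 9.05% of all genes were, and 0, 1 and 1 were higher, where 6.62%, 8.57% and 8.46% of all genes were. Stat5a, a STAT protein that acts below growth hormone and prolactin receptors, fell by 0.50, 0.65 and 0.45 log2 units against INT, MF and C (limma adjusted p = 0.000728, 2.56e-05 and 0.00179). Pik3r1, the regulatory subunit of phosphatidylinositol 3-kinase, fell by 0.29, 0.38 and 0.38 (limma adjusted p = 0.00347, 0.00019 and 0.000231). Rela, a subunit of NF-kB, fell by 0.34 against MF and 0.24 against C (limma adjusted p = 0.00277 and 0.0335), with -0.20 against INT (limma adjusted p = 0.0868). Gab1, a docking protein of Met and Egfr, rose by 0.30 against MF (limma adjusted p = 0.0155), and Ikbkb, a kinase that frees NF-kB, by 0.15 against C (limma adjusted p = 0.0283). Shc1 and Myd88 complete the genes lower against MF.

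Of 22 feedback inhibitor genes, 0 were called against INT by limma (4 at an unadjusted p under 0.05), and 2 were lower and none higher against MF and against C. Among all genes tested, 8.37%, 11.2% and 9.05% were called lower and 6.62%, 8.57% and 8.46% higher against INT, MF and C. The lower counts against MF and C are near those shares. At an unadjusted limma p under 0.05, 3780 of all 13603 genes passed against INT. Ptpn1, a phosphatase that acts on leptin and insulin receptor signalling, fell by 0.47 against MF and 0.38 against C (limma adjusted p = 0.00637 and 0.0311). Lrig1, which promotes the breakdown of ErbB receptors, fell by 0.39 against MF (limma adjusted p = 0.0302), and Spry4, which restrains Ras signalling, fell by 0.61 against C (limma adjusted p = 0.0186).

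Acute phase genes, the targets of interleukin-6 and interleukin-1 signalling in hepatocytes, were called lower in CR-fed mice for 3 of 27 against INT, 10 against MF and 9 against C, and 2 (Cfb and Agt) were higher in each. Over all genes, 8.37%, 11.2% and 9.05% were called lower, so the count against INT is near that share and those against MF and C are above it. The shares of all genes called higher were 6.62%, 8.57% and 8.46%, and the count of 2 is near them. The median log2 fold change over the 27 genes was -0.04, -0.16 and -0.09, where that of all genes was 0.00 in each. Saa4 averaged 11.7 ± 0.06 in CR-fed livers, against 12.4 ± 0.15 in INT-fed, 12.5 ± 0.13 in MF-fed and 12.5 ± 0.16 in C-fed livers, and every CR-fed mouse lay below every other mouse. It fell by 0.71, 0.85 and 0.82 log2 units (limma adjusted p = 1.58e-07, 8.55e-09 and 1.58e-08). Serpina3n fell by 0.37, 0.57 and 0.49 (limma adjusted p = 0.0335, 0.00085 and 0.00391) and Saa3 by 0.57, 0.84 and 0.67 (limma adjusted p = 0.0196, 0.00057 and 0.005). Saa2 averaged 7.03 ± 0.79 in CR-fed livers, against 8.95 ± 1.62 in INT-fed, 10.7 ± 1.75 in MF-fed and 10.03 ± 1.31 in C-fed livers. It fell by 3.70 against MF and 3.00 against C (limma adjusted p = 0.000608 and 0.00482), and its -1.92 against INT was not called (limma adjusted p = 0.0799). Serum amyloid A genes are close copies of each other, so probes of Saa2 may also read related transcripts. Steap4 followed the same order, with -0.55, -1.13 and -0.87 (limma adjusted p = 0.105, 0.000694 and 0.00802).

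Kupffer cell and macrophage markers were called higher in CR-fed mice for 6 of 10 genes against INT, 3 against MF and 2 against C, where 6.62%, 8.57% and 8.46% of all genes were called higher. Their summed intensity was 4551 to 6968 in CR-fed livers, against 2965 to 4445 in INT-fed, 3300 to 5337 in MF-fed and 3965 to 6069 in C-fed livers, and none was below the minimum on all arrays. Endothelial markers summed to 6156 to 7013 in CR-fed livers, against 5860 to 6637 in INT-fed, 5727 to 6976 in MF-fed and 5913 to 6540 in C-fed livers, with 2 of 10 higher in each comparison and 1, Lyve1, lower against MF. Of 10 stellate cell markers, 0 were called by limma in these comparisons (2, 2 and 0 at an unadjusted p under 0.05), and they summed to 4947 to 5883 in CR-fed livers, against 4500 to 5790, 4772 to 5885 and 4642 to 5703 in INT-fed, MF-fed and C-fed livers. Among all 13603 genes tested, 3780, 4307 and 4017 had an unadjusted limma p under 0.05 against INT, MF and C. Among the 5 cholangiocyte markers tested, Krt7 was called higher in CR-fed mice in all 3 comparisons (0.35, 0.38 and 0.44) and Sox9 against C (0.29). Of 7 lymphocyte markers tested, 1, Cd4, was called lower against INT and against C (-0.71 and -0.63) and 0 were called against MF. Over all genes, 8.37%, 11.2% and 9.05% were called lower against INT, MF and C. The median log2 fold change of the 7 was -0.04, -0.03 and -0.16. Of 2 neutrophil markers tested, 0 were called by limma in these comparisons (0 at an unadjusted p under 0.05). Of the 6 hepatocyte markers tested, Cps1 was called higher (0.32, 0.47 and 0.27) and Fabp1 lower (-0.36, -0.32 and -0.31) against INT, MF and C. The part of these cells in the receptor values was not tested.

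Some pairs of receptor genes also varied together among mice of the same diet. How often pairs of other genes did so was not counted, so these relations are not shown to be particular to receptors. With the diet means subtracted, 3 of 28 pairs of the 8 genes correlated over the 27 mice at an adjusted p under 0.05 (permutation tests with 100000 resamples, 2-sided, adjusted over 28 pairs). Egfr and Lifr had the closest relation (r = 0.72, permutation adjusted p = 0.0101, and rho = 0.74, permutation adjusted p = 0.00812). It was r = 0.63 without C replicates 5 and 6, r = 0.72 within replicates 1 to 4 and r = 0.78 within replicates 5 to 7. C replicate 6 had the highest values of both genes in its group (12.37 and 10.81) and C replicate 5 the lowest (11.09 and 9.78). Egfr also varied with Lepr (r = 0.58, permutation adjusted p = 0.0332, and rho = 0.56, permutation adjusted p = 0.0467, with r = 0.53 without the same 2 mice, and 0.76 and 0.69 within the array sets). These are positive relations within diets, whereas in CR-fed mice Egfr was lower and Lepr higher than in INT-fed and C-fed mice.

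Il6st and Il1r1 formed the third pair (r = 0.59, permutation adjusted p = 0.0193), but by rank the relation did not pass (rho = 0.47, permutation adjusted p = 0.0881). It was r = 0.58 without CR replicates 5 and 2, r = 0.61 within replicates 1 to 4 and r = 0.49 within replicates 5 to 7. CR replicate 5 was the lowest CR-fed mouse in both genes (10.73 and 8.80), and MF replicates 3 and 4 were the highest MF-fed mice in both (11.20 and 11.20 for Il6st, 11.29 and 11.13 for Il1r1). Subtracting the means of the array sets as well as of the diets gave 5 pairs, with Erbb3 and Lepr (r = 0.53, permutation adjusted p = 0.0435) and Lifr and Lepr (r = 0.53, permutation adjusted p = 0.0372) in addition. Erbb3 and Lepr, with diet means alone subtracted, passed by rank (rho = 0.56, permutation adjusted p = 0.0467) but not by r (r = 0.54, permutation adjusted p = 0.0647, with r = 0.68 without C replicate 6 and CR replicate 4). That relation was r = 0.68 within replicates 1 to 4 and r = -0.10 within replicates 5 to 7, so it did not hold in both array sets. For Lifr and Lepr, r was 0.36 within replicates 1 to 4 and 0.80 within replicates 5 to 7.

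**Figure D4:**
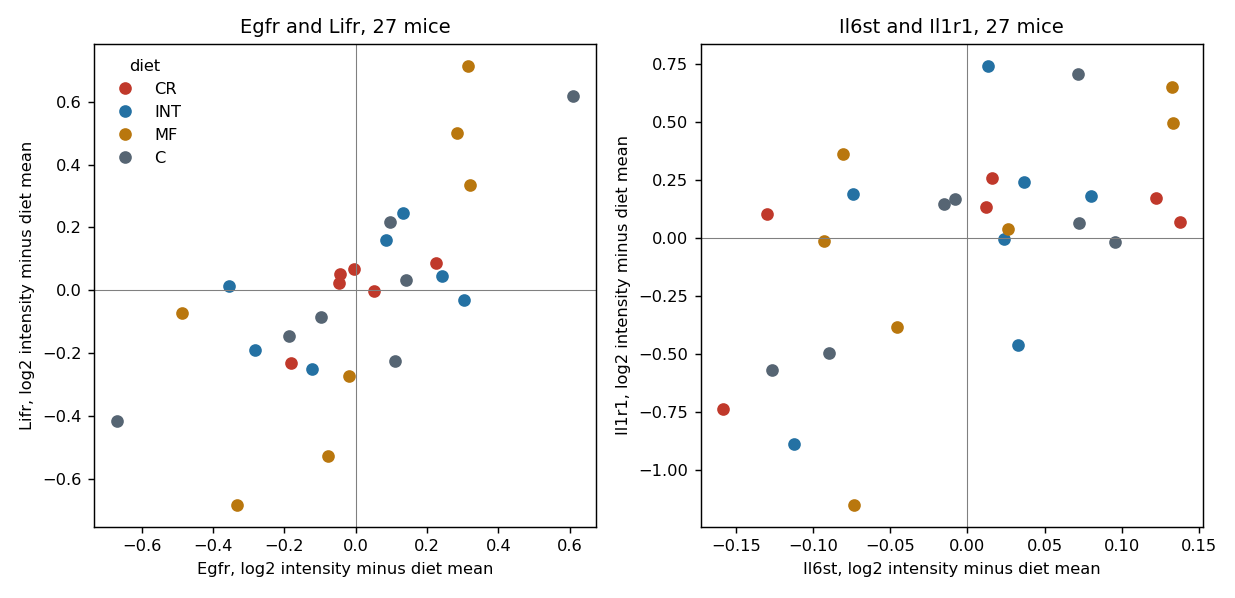
Log2 intensity minus the diet mean for Egfr (horizontal) and Lifr (vertical) on the left, and for Il6st (horizontal) and Il1r1 (vertical) on the right. Each point is 1 of 27 mice, coloured by diet, and points run from lower left to upper right, more closely on the left (r = 0.72) than on the right (r = 0.59).

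The genes whose pattern was most like each receptor were found by Pearson's r over the 27 livers and again with the diet means subtracted. These correlations are descriptions over mice whose arrays were normalized together, and diet itself raises r in the first measure. Lifr was most like C8b, a complement component (r = 0.94, and 0.93 with diet means subtracted), and within diets was closest to Cyp7b1, an oxysterol hydroxylase (r = 0.94). Cyp7b1 was also first for Egfr over all livers (r = 0.88, and 0.76 within diets), followed by C8b (r = 0.86), and Pdia5 was first within diets (r = 0.85). Lepr was most like Sorbs3 (r = 0.90, and 0.62 within diets), and within diets Wnk4 came first (r = 0.77). Met was most like Manba, a lysosomal mannosidase, in both measures (r = 0.90 and 0.71), with Iigp1 (r = 0.88) and Saa4 (r = 0.85) next over all livers.

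For Il1r1 and Il6st, Slc39a14, a zinc transporter, came first over all livers (r = 0.86 for Il1r1 and 0.80 for Il6st). Within diets Map3k6 came first for Il1r1 (r = 0.83) and Arhgef26 for Il6st (r = 0.78), and Arhgef26 was also among the first 3 for Il1r1 over all livers (r = 0.84). Slc39a14 averaged 10.8 ± 0.17 log2 units in CR-fed livers, against 11.1 ± 0.23 in INT-fed, 11.4 ± 0.28 in MF-fed and 11.3 ± 0.23 in C-fed livers, the order of the Il1r1 means. Il6ra was most like Rnf169 (r = 0.82), Baiap2 (r = 0.77) and Foxo1 (r = 0.74), and the same 3 led within diets (r = 0.82, 0.82 and 0.81). Erbb3 was most like Fam110c (r = 0.82), whose intensities were low, and within diets 0610030E20Rik and Fam110c had the same r of 0.75.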

How the data were processed

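Liver RNA of 27 mice, 100 ng each and with an RNA integrity number above 8.0, was hybridised by the authors to Affymetrix Mouse Gene 1.1 ST arrays. The deposited values are log2 intensities per probe set, normalized together by the authors with robust multiarray average. This quantile step gives all arrays nearly the same distribution, so a shift shared by most genes would not be seen, and differences of bright or dim probe sets can be compressed. Arrays carry no read depth, and precision is limited by the number of mice. The methods describe probe sets redefined by Entrez gene, whereas the table used here has 35556 rows, each a probe set as the manufacturer defined it. By the platform annotation, 21218 of them named 1 gene, 1881 several and 12457 none, and only the first were used. For 1386 genes with more than 1 probe set, the one of highest mean was kept. A RefSeq gene table (GRCm38.p6) gave 18790 of 18820 symbols and the gene positions, and RefSeq sequences of the same build gave the promoters, with no entry for Erbb3. The closest pair of arrays shared 138 identical values.

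Groups were taken from the sample labels. Genes were kept where 5 or more arrays showed an intensity over 20, the methods' minimum, and were tested with limma 3.58.1 (R 4.3.3; lmFit, contrasts.fit, eBayes) on all 27 arrays, with Benjamini-Hochberg adjustment over 13603 genes per comparison and a threshold of 0.05. On simulated data for 13603 genes, 81%, 81% and 83% of genes with a log2 change of 0.5 were recovered for CR against INT, MF and C, and 100%, 99% and 99% of those with a change of 1. False calls numbered 6, 8 and 7. The simulation changed 100 genes of each size, in CR-fed mice only, with noise independent between genes. In the data 2039, 2690 and 2382 genes were called, so these shares are not the power of the real tests. Receptor pairs were compared on log2 values with diet means subtracted, by permutation with 100000 resamples (Python 3.11.15, numpy 2.4.6, scipy 1.17.1). The 8 genes measured give 28 pairs, fewer than planned for 9. Pathway and marker lists (206 genes) came from general knowledge. The genes named from each pathway list were up to 5 called in any CR comparison, by smallest p. The 3 genes of highest r per receptor and measure were found for likeness, and the first of them are named. The receptor genes and lists were chosen with earlier results of these data known. Other settings concerned the intensity minimum, scaling, variance model, array weights, samples in the fit, blocks by replicate number, mouse number or array set, each array set alone, each mouse left out, probe set choice and the methods' one-way test with its post-test. Figures used matplotlib 3.10.9.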

Additional observations from a re-analysis of the deposited data

Results flagged for a closer look

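With 32 receptor and diet groups examined, a mouse stood apart from the others of its group 3 times by Dixon's criterion, where chance marks about 1 group in 20. Lifr had its lowest CR value in replicate 2, at 9.47 log2 units, with the next CR-fed mouse at 9.70. Il1r1 had its lowest CR value in replicate 5, at 8.80, with the next at 9.61. Il6ra had its lowest C value in replicate 7, at 9.46, with the next at 9.93. None of the calls of Lifr or Il1r1 in the CR comparisons was lost when 1 of these mice was left out, and the sign of Il6ra for CR against C turned without C replicate 7 (-0.08).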

How the results depend on the processing

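Over the CR comparisons, 13 receptor values were called. All 13 remained called without an intensity minimum, with an intensity above 20 on all arrays, and with trended and robust variances. They also remained with the array set or the mouse number as a block, and by the methods' one-way test with its post-test. Each measured receptor gene had 1 probe set of its own. Taking the mean of all probe sets of a gene therefore left the receptor values unchanged and was no check on them. With median centring, cyclic loess, array weights or only the 2 diets compared, 12 remained, and Il6st against MF was lost in each. Nothing in the labels ties same-numbered mice together. Same-numbered mice of different diets correlated at a mean r of 0.07, against -0.01 for other pairs, with r over 0.1 in 17 of 39 pairs. Of the 27 mice, 12 were closest to their own number. Mice of the same replicate number were thus somewhat more alike than other pairs, for a reason that was not tested. Same-numbered mice also share an array set. Mice of different diets in the same array set correlated at a mean r of 0.03, against -0.04 across the sets. The part of the array set in the likeness by number was not tested. As the labels give no pairing, the main fit left the replicate number out, and it was fitted as a block as a check. With the replicate block all 13 remained and Lifr against C was added (-0.51, limma adjusted p = 0.0361), so the receptor counts were 4, 4 and 6 against INT, MF and C. Lifr against C was also called with an intensity above 20 on all arrays, with array weights and with only the 2 diets (limma adjusted p = 0.0477, 0.0232 and 0.0182). Within replicates 1 to 4, 10 of the 13 remained. Within replicates 5 to 7, with 2 CR-fed mice, 2 remained, and the receptor counts were 0, 1 and 1 against INT, MF and C. Counts with each mouse left out ran from 4 to 5, 3 to 5 and 5 to 6, and no called value changed sign in any setting. Il6ra, never called, changed sign against MF within replicates 5 to 7 (-0.0871), and against C with the mouse number as a block (-0.0117), within replicates 1 to 4 (-0.0864) and with single mice left out (-0.0793 to 0.0737). The number of correlated receptor pairs was 5 with the array set subtracted, against 3. Over all genes, 2039, 2690 and 2382 were called against INT, MF and C, with 1038 and 1226 against INT and C within replicates 1 to 4, and 347, 331 and 497 within replicates 5 to 7. Between INT and MF, 29 genes were called without MF replicate 6, 3 with array weights, 2 without C replicate 5 and 1 without C replicate 7, and between MF and C 1 within replicates 1 to 4; no receptor gene was among the INT and MF or MF and C calls. The cause of these changes was not tested.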

Other observations

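Among MF-fed mice, those high in Il1r1 were low in Lifr. Replicates 3, 4 and 5 had the highest Il1r1 values of the group (11.29, 11.13 and 11.00 log2 units) and its lowest Lifr values (9.41, 9.26 and 9.67). Replicate 6 had the lowest Il1r1 value (9.48) and the highest Lifr value (10.65). In the C group, replicate 6 had the highest value of both genes (11.27 for Il1r1 and 10.81 for Lifr). Over all mice with diet means subtracted the 2 genes showed no relation that passed (r = -0.28, rho = -0.22, permutation adjusted p = 0.589 and 0.567), and without MF replicates 6 and 4 r was 0.03. The difference between the MF and C groups was noticed in the values and was not tested.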
